A study of Rattus norvegicus with 6 samples.

Results

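The circRNAs described here are those of the rat pineal gland in which the circular form made up a large part of the reads at its own ends. They were chosen by summing, over the 6 libraries, the back-splice reads (reads across the closed junction) and the linear reads (reads over the ends of the ring without a back-splice). A circRNA was kept with at least 5 back-splice reads and counted as a high-share member with a circular share of at least 40%, where the circular share is the doubled back-splice reads as a percentage of doubled back-splice plus linear reads. Of 2228 circRNAs in the main tables, 1580 had at least 5 back-splice reads, and 178 of these (11.3%) were high-share members. The other 1402 are the comparison set. The choice used back-splice and linear reads, so the share and both read numbers of the members are given as a description, without a test. Among the 648 circRNAs with fewer than 5 reads, 133 also had a share of at least 40% and were left out by the rule.

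Total RNA of the pineal gland of 6 rats aged 8 weeks was sequenced, with 1 library per rat and 3 rats per group. The labels conflict on the time of day. By titles and time tags, glands of C01 to C03 were taken at 4:00 (night) and those of C04 to C06 at 16:00 (day). By the protocol, C01 to C03 were killed in sunlight between 16:00 and 17:00 and formed the light group, and C04 to C06 were killed under red light between 4:00 and 5:00 and formed the dark group. Groups therefore carry rat numbers only, differences are those of C01 to C03 minus C04 to C06, and none is assigned to day or night. No strain, genotype or agent is given in the labels. The main tables hold 15506 to 22265 back-splice reads per library, and no pair of libraries was alike within sampling noise. The files name host genes by Ensembl ID only, and 0 of the 78 host IDs of members could be matched to a symbol, so markers of the pineal gland or of other cell types could not be checked. The genome build is uncertain, and positions are those in the files. No sequence is shown, since no genome was used.

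A circRNA forms when a splice donor is joined to an acceptor upstream of it, which closes the RNA into a ring without free ends. Rings resist exonucleases and can outlast the linear transcript of the same gene, and brain tissue is known for many of them. The pineal gland is a neuroendocrine gland that secretes melatonin at night. At most host genes the linear transcript is read far more often than the ring. The circular share sets the back-splice reads of the ring against the linear reads at the same ends. Linear reads are defined only by lacking that back-splice. Where rings overlap, how many of them came from another ring was not tested. Below, ring and circRNA stand for a back-splice listed in the main tables. Whether each listed back-splice comes from a closed RNA was not tested.

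The members differed from the other circRNAs in annotated class. Of the 178 members, 94 (52.8%, exact Clopper-Pearson 95% interval 45.2% to 60.3%) were annotated as intergenic, and these had no host gene given. Whether genes lie between the ends of such rings was not checked. A further 27 (15.2%) were intronic and 57 (32.0%, 25.2% to 39.4%) exonic. Of the other 1402, 337 (24.0%) were intergenic, 95 (6.78%) intronic and 970 (69.2%) exonic. Read from the side of the classes, 21.8% of the 431 intergenic and 22.1% of the 122 intronic circRNAs were members, against 5.55% of the 1027 exonic ones. These intervals cover counting error only, and circRNAs of 1 locus are not independent of each other.

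The higher intergenic percentage was present at every level of back-splice reads. At 5 to 9 reads 58% of members and 26.1% of the others were intergenic, at 20 to 49 reads 44% and 23.4%, and from 200 to under 1000 reads 43.5% and 25%. At 1000 or more reads 7 of 11 members were intergenic and none of the 5 others. Weighted by reads, intergenic circRNAs held 61.0% ± 2.50 of the members' back-splice reads per library and 18.7% ± 0.962 of the others' (SD, n = 6). The 5 most read members of each library held 38.5% ± 2.12 of the members' reads (SD, n = 6), so a few loci weigh much in the members' percentage. Class also varied with the share below and above the limit of 40%. Exonic circRNAs made up 82.3% of those with a share under 10% and 13.6% of those at 90% or more, and intergenic ones 13.8% and 63.6%.

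**Figure D1:**
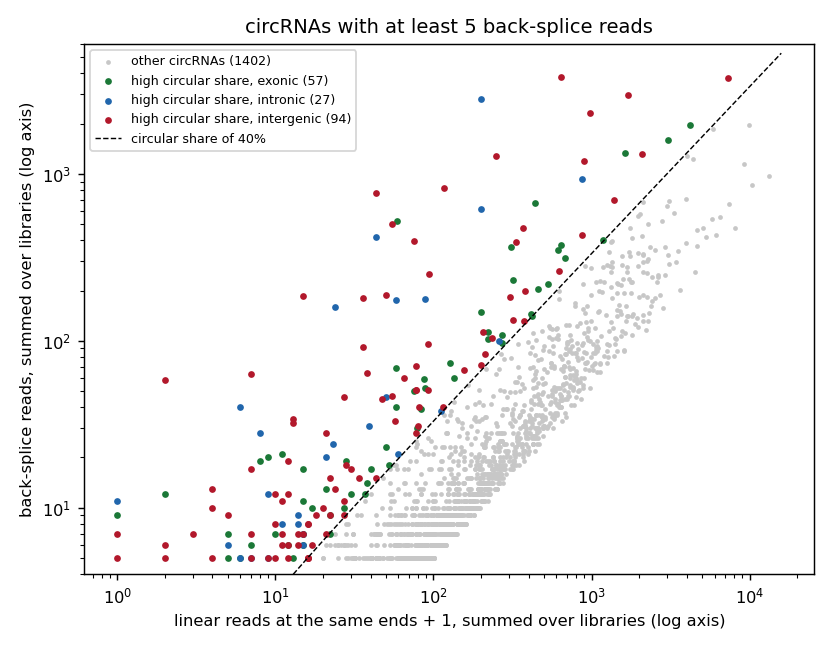
Back-splice reads (vertical, log axis) against linear reads plus 1 (horizontal, log axis), each summed over the 6 libraries, for the 1580 circRNAs with at least 5 back-splice reads. Members are coloured by annotated class, the other 1402 are grey, and the dashed line marks a circular share of 40%; most of the points with 1000 or more back-splice reads lie on the members' side of it, by the rule that chose them.

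**Figure D2:**
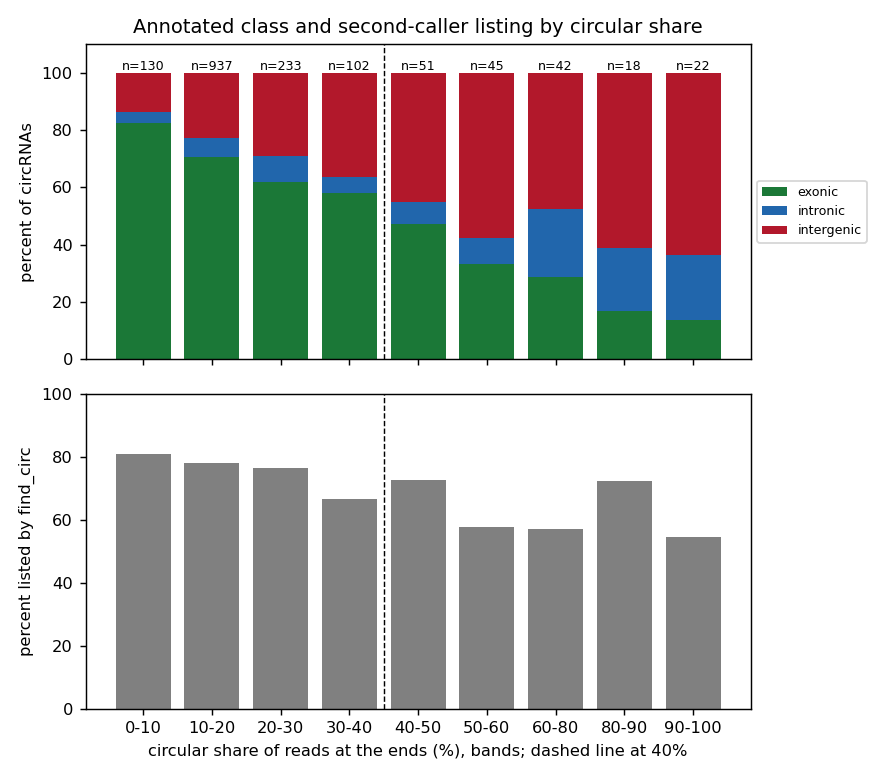
Percent of circRNAs annotated as exonic, intronic or intergenic (top) and percent listed by find_circ (bottom) in bands of circular share, with the number of circRNAs above each bar. Left to right the exonic part runs from 82.3% to 13.6%, and the part listed by find_circ from 80.8% to 54.5% without falling evenly: it is 66.7% at 30 to 40%, 72.5% at 40 to 50%, 57.8% and 57.1% in the next bands and 72.2% at 80 to 90%.

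Members were few but heavily read. They made up 11.3% of the kept circRNAs and held 40617 of 116358 back-splice reads (34.9%). The median member had 29 back-splice and 34 linear reads, against 15 and 184 for the others. In 64 members (36.0%) back-splice reads outnumbered linear reads. The median share was 57.7% in members and 14.1% in the others. The percentage of circRNAs that were members was 9.38% at 5 to 9 reads, 8.45% at 10 to 19 and 8.14% at 20 to 49, and then 14.4% from 50 to under 200, 23.2% from 200 to under 1000 and 68.8% (11 of 16) at 1000 or more. More back-splice reads raise the share by its definition, so this order is part of how members were chosen.

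The most read member was the intergenic chr20:5347661-5414567, with 903, 559, 584, 686, 782 and 299 back-splice reads in C01 to C06. Its linear reads numbered 133, 88, 88, 97, 137 and 94, and its circular share 93.1%, 92.7%, 93.0%, 93.4%, 91.9% and 86.4%. Rat C06 was the lowest in both back-splice reads and share, and the other 5 libraries lay within a few points. The second caller, find_circ, listed no read for it in any library.

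The intergenic chr3:104816866-104818862, a short ring of 1997 bases in the genome, came next, with 939, 602, 688, 497, 555 and 488 back-splice reads. It also had many linear reads, at 1977, 1371, 1393, 828, 939 and 839, and its share was only 46.8% to 54.6%. Its groups did not overlap in any of these quantities. It was found by both callers, find_circ giving 980, 730, 824, 347, 668 and 474 reads.

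The third was the intergenic chr2:240854068-240867796, with 478, 375, 398, 566, 594 and 543 back-splice reads and a share of 73.7%, 75.2%, 75.7%, 80.3%, 79.4% and 79.5%. Here find_circ listed 689 reads in all, fewer than the 2954 of the main tables. The intronic chr6:76591791-76599536, in the gene given as ENSRNOG00000046256, had 522, 413, 444, 447, 521 and 448 back-splice reads beside only 31, 27, 42, 26, 45 and 29 linear reads. Its share lay between 95.5% and 97.2%, a range of 1.69 percentage points and the smallest among the members listed in all 6 libraries. Both groups overlapped, and find_circ also listed it in every library, with 282 to 583 reads.

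The intergenic chr3:81127393-81143240 had 379, 277, 329, 428, 481 and 410 back-splice reads and a share of 79.3% to 86.1%, and find_circ did not list it. A pair of exonic members from 1 host gene on chromosome 5, ENSRNOG00000017940, began at the same base. The ring chr5:167486001-167581074 had 404, 274, 316, 335, 328 and 292 back-splice reads, with a share of 48.3% over all libraries. Its partner chr5:167486001-167615430 had 341, 243, 245, 247, 267 and 254, with a share of 51.4%. The exonic chr9:94463647-94481167 completed the 8 most read members with 220, 173, 195, 246, 275 and 224 reads and a share between 59.9% and 64.2%. Of these 8, the short chr3 ring and the 3 exonic rings lay nearer to the limit of 40% than the other 4.

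At the upper end of the share, the 5 highest among members listed in all 6 libraries were 4 intergenic rings and the intronic chr6:76591791-76599536 described above. The highest was chr10:94083626-94187819, at 99.2%, with 3, 8, 10, 19, 9 and 9 back-splice reads and 1 linear read in total. With 768 back-splice reads, chr14:113271542-113314869 was read more deeply: 118, 106, 98, 160, 159 and 127 back-splice reads stood beside 2, 8, 4, 4, 15 and 9 linear reads (97.3%). The longest member of all, chr2:251176578-251376470, had 45, 35, 41, 23, 14 and 28 back-splice reads and 4, 3, 2, 0, 5 and 0 linear reads (96.4%). The last, chr2:248222990-248253593, had 7 to 17 back-splice reads per library (95.5%). None of these 4 intergenic rings was listed by find_circ in any library, and the first and the third are longer than its longest entry, 99870 bases.

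Only 4 members had no linear read at all, and all 4 were thinly read. The 3 with most reads were the intronic chr7:20267849-20402059 with 11 back-splice reads, the exonic chr12:44821090-44825909 with 9 and the intergenic chr2:93460344-93495152 with 7. The fourth, chr3:172952848-172953267 with 5 reads, was added after its values were seen. At such depths a few unread linear molecules would change the share by many points.

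At the limit, 5 members had a share of exactly 40%. Just inside were the intergenic chr13:8880011-8892211, chr14:6267451-6341813 and chr4:27056189-27071454, each with 5 back-splice and 15 linear reads. Just outside were chr2:157066595-157082251 at 39.7%, chr4:17032161-17033623 at 39.6% and chr15:38651172-38701205 at 39.5%. Within 2 points of the limit lay 18 members and 17 of the others, so the boundary does not fall in a gap of the distribution.

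Genomic span, the distance between the ends with introns included, was read as a second property that the rule did not use. The median was 15785.5 bases in members (quartiles 5009.75 and 47157.5) and 13574.5 in the others (4619.5 and 29739.2). The members reached further at the long end: 42 (23.6%) spanned 50 kb or more, against 183 (13.1%) of the others. By class the order of the medians was not uniform. Intergenic members had a median of 29575.5 bases against 20050 for other intergenic circRNAs, exonic members 12686 against 11975, and intronic members 9542 against 13063. Among circRNAs that find_circ also listed the overall order turned, with 11181.5 bases in members and 11513 in the others.

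The shortest members were chr6:21539861-21540152 (292 bases, exonic), chr4:88443773-88444143 (371 bases, intronic) and chr5:81963969-81964353 (385 bases, exonic), with 7, 9 and 18 back-splice reads. After chr2:251176578-251376470 (199893 bases), the longest were the intergenic chr18:85534246-85731039 (196794 bases, 9 reads) and chr1:117768620-117963963 (195344 bases, 51 reads). The 3 longest rings thus rest on 186, 9 and 51 back-splice reads.

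Members were shared by more rats than the other circRNAs. Of 178 members, 67 (37.6%) were listed in all 6 libraries and 30 (16.9%) in a single one. Of the other 1402, 206 (14.7%) were listed in all 6 and 434 (31.0%) in 1. Read depth differs between the sets, so sharing was also read at like depth: at 20 to 49 reads 28% of members and 8.51% of the others were in all 6 libraries, from 50 to under 200 reads 71.8% and 46.8%, and from 200 to under 1000 reads 91.3% and 90.8%. The main tables list no circRNA with a share below 9.09% in that library or with fewer than 2 back-splice reads, and the others' median share of 14.1% lies closer to that floor than the members' 57.7%. The part of this floor in the difference in sharing was not tested.

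An entry that is missing from a main table is not a measured absence, also for members. Over members and libraries there were 373 missing entries, and in 42 of them (11.3%) find_circ listed reads at the same ends. For the other circRNAs this was so in 1448 of 4399 (32.9%). Counting only circRNAs that find_circ listed in some library, the percentages were 19.4% and 43.9%.

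Among the members 11 of the missing entries had 50 or more find_circ reads, and they came from 3 circRNAs, singled out after their values were seen. The intronic chr4:183498456-183537970 was in the main table of rat C06 alone, with 160 back-splice and 23 linear reads, yet find_circ gave 162, 168, 176, 100, 167 and 107 reads in C01 to C06. The intronic chr7:76837537-76845975 was likewise in the main table of C06 alone, with 176 reads, and had 148, 105, 126, 122, 178 and 130 by find_circ. The exonic chr10:71546978-71557193 was missing from the main table of C03 alone, with 88 find_circ reads there. Both intronic rings would count as members of 1 library by the main tables and of all 6 by find_circ.

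In find_circ's lists members were less often present than the other circRNAs. It listed 112 of 178 members (62.9%) and 1083 of 1402 others (77.2%) with the same ends. Its lists end at a span of 99870 bases, which 16 members and 48 others exceeded. Among circRNAs within that span it listed 69.1% of members and 80.0% of the others. Within each class the members' percentage was also lower, at 80.7% against 83.4% for exonic, 63.0% against 71.6% for intronic and 52.1% against 61.1% for intergenic rings. Of the 8 most read members, 3 had no find_circ read, and of these only chr5:167486001-167615430 was longer than find_circ's limit. The TPM table of the authors, which draws on both callers, held 111 members (62.4%) and 1039 others (74.1%).

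The main tables also give, per library, in how many distinct ways the reads of a circRNA were clipped on the left, on the right or on both sides of the mapped part. A ring whose junction is read evenly from both sides gives left-clipped and right-clipped patterns in like numbers. Over circRNAs with at least 20 reads, the smaller of these 2 numbers divided by the larger had a median of 0.80 in 98 members and 0.78 in 594 others. It was below 0.5 in 16 members (16.3%) and 124 others (20.9%). Among members it was lower where find_circ had no entry: the median was 0.61 in 32 unlisted and 0.84 in 66 listed members, and 25% against 12.1% lay below 0.5. The others showed the same order, with 0.51 and 0.82.

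The most read members lay at opposite ends of this measure. Summed over libraries, chr3:104816866-104818862 had 649 left-clipped and 644 right-clipped patterns, and chr6:76591791-76599536 had 622 and 609. By contrast chr20:5347661-5414567 had 24 and 357, and chr9:94463647-94481167 had 440 and 93. A further 2 members, singled out after their values were seen, had no right-clipped pattern. The exonic chr5:90818736-90880617 was listed in rat C01 alone, with 374 back-splice and 644 linear reads and 95 left-clipped patterns. The intergenic chr1:122613645-122680102 had 121 left-clipped patterns over 5 libraries with 28 to 47 reads each. Neither was listed by find_circ.

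**Figure D3:**
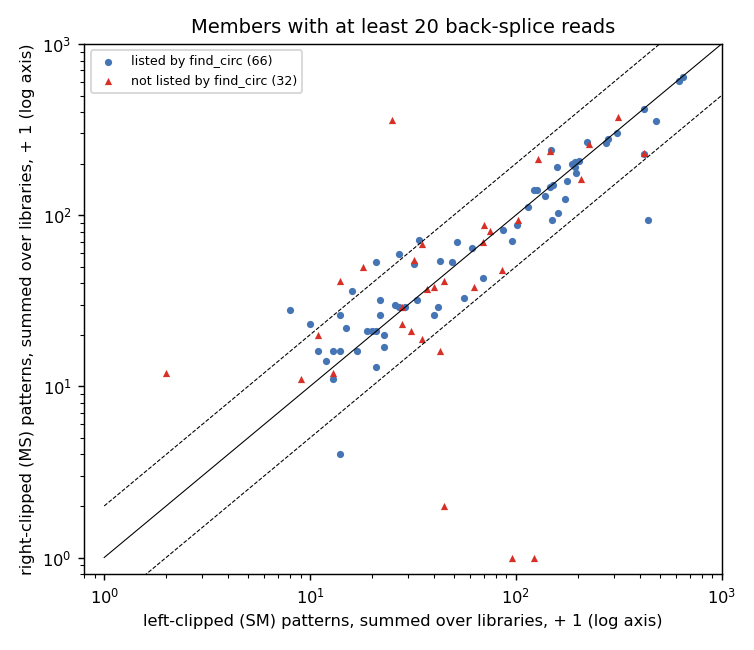
Left-clipped (horizontal) and right-clipped (vertical) patterns plus 1, summed over libraries, both on log axes, for the 98 members with at least 20 back-splice reads; circles are the 66 listed by find_circ and triangles the 32 not listed. The solid line marks equal numbers and the dashed lines a ratio of 2, and the points farthest from it are triangles.

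Other read properties did not separate the sets. Reads lying near another read of the same circRNA on the flow cell, as copies made there would, made up 19.0% ± 1.10 of member reads and 18.7% ± 0.973 of the others' reads per library (SD, n = 6). The plus strand held 48.9% of members and 48.9% of the others. An end shared with another circRNA was found in 46.1% and 44.8%. By class the order was not uniform: 52.6% against 41.0% for exonic, 25.9% against 49.5% for intronic and 47.9% against 54.3% for intergenic rings.

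Members were spread over many host genes and loci. The 84 exonic and intronic members had 78 different host genes, and no gene had more than 2. Only 6 host genes had 2 members. In ENSRNOG00000017940 on chromosome 5 the 2 members described above were 2 of 11 kept circRNAs, and the other 9 had shares of 9.48% to 38.5%. In ENSRNOG00000053306 on chromosome 9 both kept circRNAs were members, the intronic chr9:113918918-113927885 at 86.0% and chr9:113918918-113928459 at 40.6%. In ENSRNOG00000027801 on chromosome 14, members of 43.8% and 41.6% stood beside 2 other rings of 18.2% and 19.0%.

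Overlapping members formed 161 loci, of which 13 held more than 1. The largest had 5 intergenic members between chr18:85534246-85731039, all ending at the same base, with 51, 45, 9, 9 and 8 back-splice reads. Where a member shared an end with a kept circRNA that was not a member, in 62 pairs, the member had more back-splice reads in 52 and fewer linear reads in 23. The median numbers in these pairs were 273 back-splice and 331 linear reads for the member and 18.5 and 168.5 for its partner. The rule used both kinds of read and puts the member above and the partner below 40% in every pair, so these numbers describe the pairs and support nothing further.

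The circular share was then read in libraries that had no part in choosing. Members were chosen by the same rule from 5 libraries, and their share was read in the sixth, each library being left out in turn. Between 167 and 174 circRNAs were chosen, and 59.2% to 65.3% of them were listed in the sixth library. There their median share was 57.6% to 60.0%, against 15.8% to 17.4% for the other circRNAs, and 77.7% to 85.2% of those listed again reached 40%, against 5.04% to 5.78%. The high share thus held in rats not used for the choice, among rings listed there.

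Among the 67 members listed in all 6 libraries, which carried 91.6% of member reads, 43 had a share of at least 40% in every library and 24 fell under it in at least 1. The range from the lowest to the highest library had a median of 15.2 percentage points. It was under 10 points in 18 members and over 30 in 10. The widest was at the intergenic chr1:54418421-54455843, 49.4 points, with shares of 47.1%, 33.7%, 34.9%, 83.0%, 55.0% and 53.7%.

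**Figure D4:**
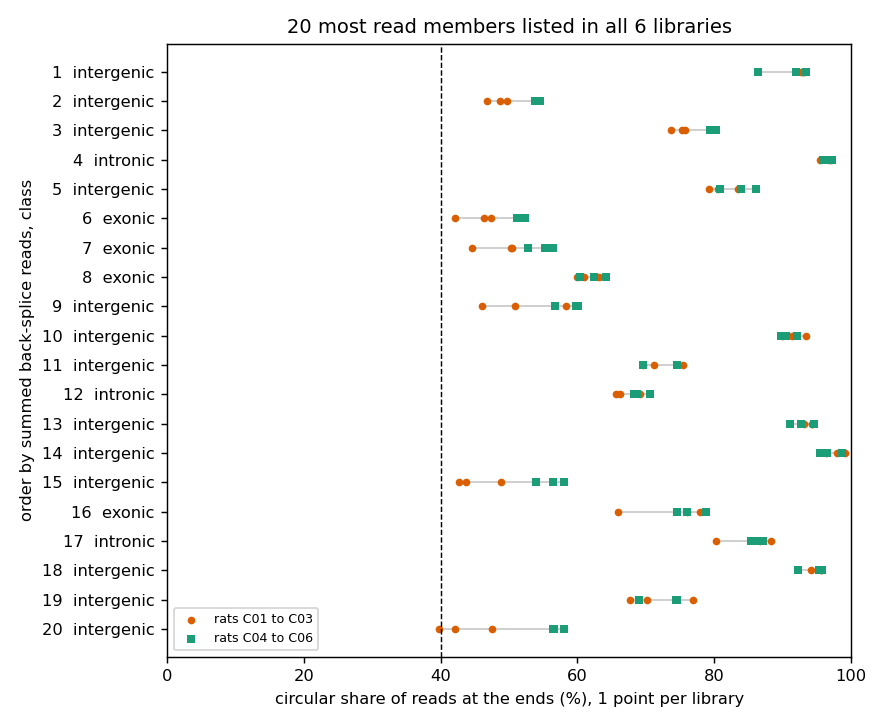
Circular share in each of the 6 libraries (1 point per library) for the 20 most read members listed in all 6, in order of summed back-splice reads from the top; circles are rats C01 to C03, squares rats C04 to C06, and the dashed line marks 40%. Members 1 and 4 are chr20:5347661-5414567 and chr6:76591791-76599536, and member 20 is chr6:126864143-126894194, whose lowest library lies just under 40%.

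The groups were compared first by 1 value per library. With 3 rats against 3 the exact two-sided permutation test has 10 splits and cannot give a p below 0.1. From C01 to C06 the main tables listed 113, 107, 117, 119, 120 and 119 members, a mean of 112 ± 5.03 against 119 ± 0.577 (SD, n = 3 each, exact permutation p = 0.1). The difference in means was -7 members, and -4.33 without rat C02. The groups did not overlap, and the number of all listed circRNAs was also lower in C01 to C03 (831 ± 39.9 against 960 ± 22.5, exact permutation p = 0.1). The members counted include 19 listed only among C01 to C03 and 27 listed only among C04 to C06. These met the rule through that group alone, so the difference in members listed depends partly on the choice and supports nothing further. The members' part of all back-splice reads was 39.1%, 37.2%, 35.0%, 32.8%, 33.2% and 32.7% from C01 to C06. It was higher in every C01 to C03 library, by 4.19 percentage points on average (exact permutation p = 0.1). Without the 2 most read members the difference was 1.59 points (exact permutation p = 0.2), so these 2 rings carried most of it.

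The pooled circular share of the members was lower in C01 to C03, with 64.6%, 62.7% and 63.7% against 69.3%, 68.6% and 68.2%. The means were 63.7% ± 0.956 and 68.7% ± 0.555 (SD, n = 3 each, exact permutation p = 0.1), and the difference was -4.67 points without the 2 most read members. In the other circRNAs the pooled share was 17.9% ± 0.234 against 18.6% ± 0.144 (exact permutation p = 0.1). Linear reads at the members' ends numbered 7601 ± 1216 against 6250 ± 464 (exact permutation p = 0.1), while those at the other circRNAs numbered 101350 ± 15460 and 119383 ± 8637 (exact permutation p = 0.2). These sums were not scaled to depth, and rings with many linear reads weigh most in them. Where rings share an end, linear reads there may be counted more than once. The member with most linear reads, chr3:104816866-104818862, had an edgeR log2 difference of 0.86 in them. Over the 67 members listed in all 6 libraries the median was 0.007, with 34 above 0 and 33 below.

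**Figure D5:**
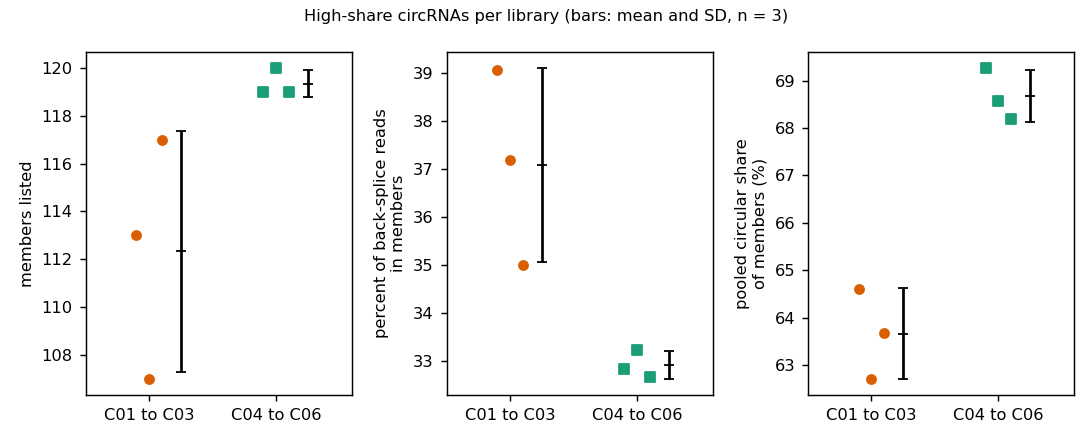
Number of members listed (left), members' percent of back-splice reads (middle) and members' pooled circular share in percent (right), 1 point per library with mean and SD (n = 3) beside each group; the vertical axes do not start at 0. In all 3 panels the points of C01 to C03 and of C04 to C06 do not overlap.

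Ring by ring, the share was more often lower than higher in C01 to C03, in the members as over all. Among the 67 members listed in all 6 libraries the groups did not overlap, with the share lower in C01 to C03, in 15. Over all 273 circRNAs listed in all 6 this was so in 60 (22%). The groups did not overlap in the other direction in 1 member, the exonic chr7:30727478-30735182, and in 13 of the 273 (4.76%). The 15 and the 1 were 22.4% and 1.49% of the 67 members: the first is near that over all circRNAs and the second, from 1 ring, is lower. The 15 were 9 intergenic, 5 exonic and 1 intronic ring and include 4 of the 8 most read members. In chr5:167486001-167581074 the share was 46.4%, 42.1% and 47.3% against 52.4%, 51.1% and 52.0%. In chr5:167486001-167615430 it was 50.3%, 44.6% and 50.4% against 52.8%, 55.2% and 56.4%.

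Tested by limma on the log2 ratio of back-splice to linear reads, each plus 0.5, 0 of the 67 members passed an adjusted p of 0.05 (2.2% of all 273 passed, 0.733% higher and 1.47% lower in C01 to C03), and 12 (17.9%) had an unadjusted p under 0.05, against 56 of the 273 (20.5%). The median log2 difference was -0.15 in members and -0.20 over the 273. The nearest to the threshold was the intronic chr12:40388299-40397763, in ENSRNOG00000046497. Its share was 92.2%, 90.4% and 94.2% against 97.7%, 97.0% and 98.2%, from 11, 13 and 7 linear reads against 4, 4 and 3 (log2 difference -1.69, SE 0.41, limma adjusted p 0.064). The groups did not overlap, but the linear reads behind the difference are few, and the ring passed only with no trend in the prior variance (limma adjusted p 0.029). Without rat C06 a different ring passed, the intergenic chr18:75203861-75207308 (limma adjusted p 0.022 against 0.13 with all rats), added here after its values were seen. From C01 to C06 its share was 29.6%, 29.3%, 29.6%, 57.1%, 58.5% and 34.8%, so C06 lay apart from the other 2 rats of its group.

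Next was the intergenic chr6:126864143-126894194, with a share of 39.8%, 42.1% and 47.5% against 56.5%, 56.6% and 58.0% (log2 difference -0.81, limma adjusted p 0.097). Its linear reads, 203, 157 and 135 against 111, 135 and 123, touched at 1 value and passed edgeR's test of linear reads (log2 difference 0.42). In the other direction chr7:30727478-30735182 had 55.3%, 59.5% and 72.2% against 52.0%, 47.9% and 42.4% (0.87, limma adjusted p 0.18), and its log2 difference was 0.56 without rat C03. The intergenic chr20:31723610-31736111 had 62.9%, 77.4% and 83.3% against 60.9%, 44.9% and 68.2% (1.09, limma adjusted p 0.23). Its groups overlapped, and its log2 difference was 0.71 without rat C05.

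Linear reads at the members' ends were tested with edgeR's quasi-likelihood test over the same 273 circRNAs. Of the 67 members 19 (28.4%) passed at the same threshold, of which 11 had more and 8 had fewer linear reads in C01 to C03, against 31.9% of all 273 (18.7% higher and 13.2% lower). By DESeq2 9 members (13.4%) passed, against 24.9% of all, and by edgeR without rat C06 11 members (16.4%), against 25.6%. The members' percentage was below that over all in each of these fits, by a margin that varied, and in the first it was near it. The rule favours circRNAs with few linear reads, and the 273 include the 67 members, so this is not a like comparison. The difference was not tested. In this fit the spread between rats was taken as nearly equal for all circRNAs (148 prior degrees of freedom), rings with few reads included.

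By log2 difference the largest rise among the members was at chr1:54418421-54455843, with 63, 67 and 56 linear reads against 9, 18 and 19 (log2 difference 2.01), while its back-splice reads were 28, 17 and 15 against 22, 11 and 11. Its linear reads thus separated the groups and its back-splice reads did not. The intergenic chr5:101648419-101663967 had 322, 239 and 269 linear reads against 181, 202 and 181 (0.56), beside 125, 114 and 100 back-splice reads against 125, 118 and 117. The chromosome 5 pair begins at the same base, so its 2 calls may rest partly on the same linear reads and are not independent. Its differences were 0.43 and 0.48, and that of chr3:104816866-104818862 was 0.86. The 3 rings last named kept the call in all 8 alternatives, as did the first 2.

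Lower linear reads in C01 to C03 were found at the exonic chr16:23555919-23600154, in ENSRNOG00000013884, with 100, 62 and 66 against 119, 138 and 130 (log2 difference -0.77). Its back-splice reads, 51, 51 and 64 against 68, 71 and 47, overlapped. At the intronic chr3:172518176-172524861 linear reads were 154, 93 and 116 against 178, 180 and 151 (-0.49), and 1 rat of the first group exceeded 1 of the second. Both calls held in all 8 alternatives. The remaining 3 named by the rule rested on few reads and were called in some alternatives only: chr20:31723858-31736111 (-1.31) in 4 of 8, chr9:104545364-104565274 (-0.75) in 5 and chr7:30714506-30735182 (-1.33) in 3.

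Back-splice reads were tested with edgeR's quasi-likelihood test over 772 circRNAs (2 or more reads in 3 or more libraries). A circRNA missing from a library's main table entered this test as having no reads there, though that is not a measured absence. Counts of calls and medians over circRNAs not listed in every library rest partly on such entries. Of 120 members tested 4 passed, 2 with more and 2 with fewer reads in C01 to C03, against 1.55% of all 772 (0.389% with more and 1.17% with fewer). The median log2 difference was -0.02 in members and -0.10 over all. Higher were chr3:104816866-104818862 and chr4:184195264-184224636 (log2 differences 0.65 and 0.63, each edgeR adjusted p 0.036), and lower were chr2:240854068-240867796 and chr3:172518176-172524861 (-0.32 and -0.52, each 0.049). With RLE in place of TMM normalization the first 2 passed and neither of the lower ones did. Without rat C04, C05 or C06 none passed, without C02 or C03 1 did, and without C01 3 did.

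At chr4:184195264-184224636 the back-splice reads were 276, 218 and 204 against 156, 179 and 157 and the linear reads 180, 177 and 178 against 136, 122 and 107. The groups did not overlap in either. Its share did not follow them, at 75.4%, 71.1% and 69.6% against 69.6%, 74.6% and 74.6%. At chr3:172518176-172524861 the back-splice reads were 147, 104 and 114 against 192, 197 and 182, and the share was 65.6% to 70.7% over all 6 rats.

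Listing by group added little. There were 19 members (10.7%) listed only among C01 to C03 and 27 (15.2%) listed only among C04 to C06, against 17.2% and 24.9% of the 1580 kept circRNAs. None was in all 3 libraries of C01 to C03 and in none of C04 to C06 (0.823% of the 1580 kept circRNAs were). In all 3 of C04 to C06 only were 2 members, and 35 of the 1580 (2.22%). These 2, both exonic and both added after their values were seen, were chr10:51724607-51739115 with 4, 6 and 11 back-splice reads and chr5:81963969-81964353 with 10, 4 and 4. As above, a missing entry is not a measured absence.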

How the data were processed

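The authors deposited, per library, a table laid out as by the caller CIRI, with counts of back-splice and of linear reads and the circular fraction per circRNA, and a candidate list laid out as by find_circ, with counts of junction reads, per the file headers. The deposited TPM table covers the whole series. The mouse build mm9 and the tool DESeq appear in the submitters' processing notes, although the files carry rat gene IDs. No label or header names an aligner or a version. Starts of find_circ were shifted by 1 to match.

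The members, lists and named circRNAs were chosen with earlier results of these data known. Named were the 8 most read members, the 5 of highest share in all 6 libraries, per test and direction up to 5 called (otherwise 2 of smallest p), 3 on each side of the limit, up to 3 host genes, the 3 longest, the 3 shortest and 3 without linear reads. Tests used edgeR 4.0.16, limma 3.58.1 and DESeq2 1.42.0 in R 4.3.3 with Benjamini-Hochberg adjustment over all circRNAs tested, and exact permutation tests in scipy 1.17.1. Only the edgeR and limma tests were also run on simulated counts. These had 1 fixed spread between rats for all circRNAs, so that run does not show how the tests perform on these data. As TPM keeps no depth it served only as an alternative (limma, log2 of the value plus 1 or plus 0.760).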

Additional observations from a re-analysis of the deposited data

How the results depend on the processing

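No paired analysis was possible because the groups share no replicate numbers. With a minimum share of 0.30 there were 280 members, 41.4% of them exonic. Among circRNAs also listed by find_circ there were 112 members, 43.8% intergenic and 41.1% exonic, with a median span of 11181.5 bases. With at least 10 back-splice reads 52.3% of members were listed in all 6 libraries (22.4% of the others). Chosen from 5 libraries with a minimum share of 0.50, an alternative added after seeing the data, members had a mean of the median shares of 70.2% in the sixth. Calls among members for back-splice reads were 2 with RLE, 11 with no filter, 1 with find_circ counts, 2 with TPM at either pseudocount and 0 to 3 without 1 rat; for the ratio 1 with no trend and 0 to 1 without 1 rat; for linear reads 9 with DESeq2 and 11 to 17 without 1 rat. The cause was not tested. Of the other 99 recomputed values, group differences kept their direction, and counts, percentages and medians stayed within limits set around the main value. A count of calls could stay within its limit while the rings called changed. By DESeq2 4 members passed for back-splice reads, as in the main test, but chr2:240854068-240867796 did not (DESeq2 adjusted p 0.32). Sizes could move too: without rat C02 the difference in members listed went from -7 to -4.33. Leaving out the 2 most read members (added after seeing the data) brought the difference in the members' part of back-splice reads from 4.19 to 1.59 percentage points. Joining reads close together on the flow cell was added likewise. The order of the median spans of members and others turned among circRNAs also listed by find_circ, whose lists end at 99870 bases. Depth limits rings of few reads most, where 1 or 2 linear reads move the share by many points.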
